A study of Mus musculus with 6 samples.

Results

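Transcripts of enzymes that make eicosanoids were examined in ligated inferior vena cavae of mice together with the thrombi inside them, 24 h after ligation, a model of deep vein thrombosis. Of 10 enzymes chosen by gene symbol, 9 are among the 16533 genes of the count tables: Ptgs1, Ptgs2, Ptges, Ptgis, Tbxas1, Alox5, Alox5ap, Alox12 and Lta4h. Alox15 is not analysed here. The mice with Cre, called mKO, were Stingf/f Lyzm-Cre+/-, and the control mice were Stingf/f, so both groups carry the loxP-flanked Sting1 alleles and differ by the Cre allele. Sample titles call the control mice WT, although they are floxed. Lyzm-Cre is active in neutrophils, monocytes and macrophages, and the other cells of the vein and thrombus keep Sting1. Each group has 3 libraries, and each library is a pool of 3 thrombus-containing veins. The labels give no ages and do not say whether pools of both groups were collected together. The p-values set the difference between groups against the spread between pools, and the spread between mice inside a pool is not seen.

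Eicosanoids are short-lived lipid mediators made from arachidonic acid, which phospholipases release from membranes. Cyclooxygenases turn it into prostaglandin H, from which terminal synthases make prostaglandin E, prostacyclin or thromboxane. Thromboxane from platelets promotes aggregation and constriction, and prostacyclin from the vessel wall opposes both. Lipoxygenases form the other branch, in which 5-lipoxygenase starts leukotriene synthesis in neutrophils and macrophages and 12-lipoxygenase acts in platelets.

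Libraries held 166083163 to 172223654 counts in mKO and 158579864 to 180068483 in control. Each enzyme had at least 1689 counts in every library. Levels are given as CPM, counts per 1000000 counts of a library size scaled by the TMM method. Fold changes are mKO over control on the log2 scale, with standard error (SE), 95% interval and p from edgeR's quasi-likelihood test, adjusted by the Benjamini-Hochberg method over 16523 tested genes. Sting1 had a log2 fold change of -0.20 (SE 0.14), with 21.4 to 28.7 CPM in mKO and 25.1 to 31.4 CPM in control. These counts sum all exons and all cells of the vein and thrombus, so they are no test of whether the floxed exons were lost in myeloid cells. Lyz2, the lysozyme gene whose locus drives the Cre, had 642.5, 1149 and 1153 CPM in mKO, against 1430, 1759 and 1885 CPM in control. Its groups did not overlap, and its log2 fold change was -0.79 (SE 0.26, edgeR adjusted p 0.333). Markers of platelets and red cells, of endothelium and of smooth muscle were detected in every library. The library mKO 3 stood apart by its skeletal muscle markers, 173.1 CPM in sum against 4.08 to 48.7 CPM in the other libraries, and by its sympathetic neuron markers, 0.878 CPM against 54.5 to 153.7 CPM. Without it, the log2 fold change was 0.505 for Ptgs2 and 0.57 for Alox5, and 0 enzymes passed the edgeR threshold. In these bulk samples, fewer cells of a type and less RNA per cell cannot be told apart.

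None of the 9 enzymes passed an adjusted p of 0.05 in edgeR's quasi-likelihood test, where 0% of all tested genes passed. The smallest adjusted p among them was 0.246, for Ptgs2. At an unadjusted p under 0.05 there was 1 enzyme, Ptgs2, which was higher in mKO, against 11.9% of all genes, 5.6% higher and 6.26% lower. Limma voom called 0 enzymes. DESeq2 called 1, Ptgs2, at an adjusted p under 0.05, against 2.79% of all genes. The mKO and control libraries did not overlap for 2 of the 9, Ptgs2 and Alox5, both higher in mKO, against 18.2% of all genes in either direction and 8.76% in the higher direction. The fold changes were positive for 4 enzymes and negative for 5, with a median of -0.03, the same as the median of -0.03 over all genes tested.

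**Figure D1:**
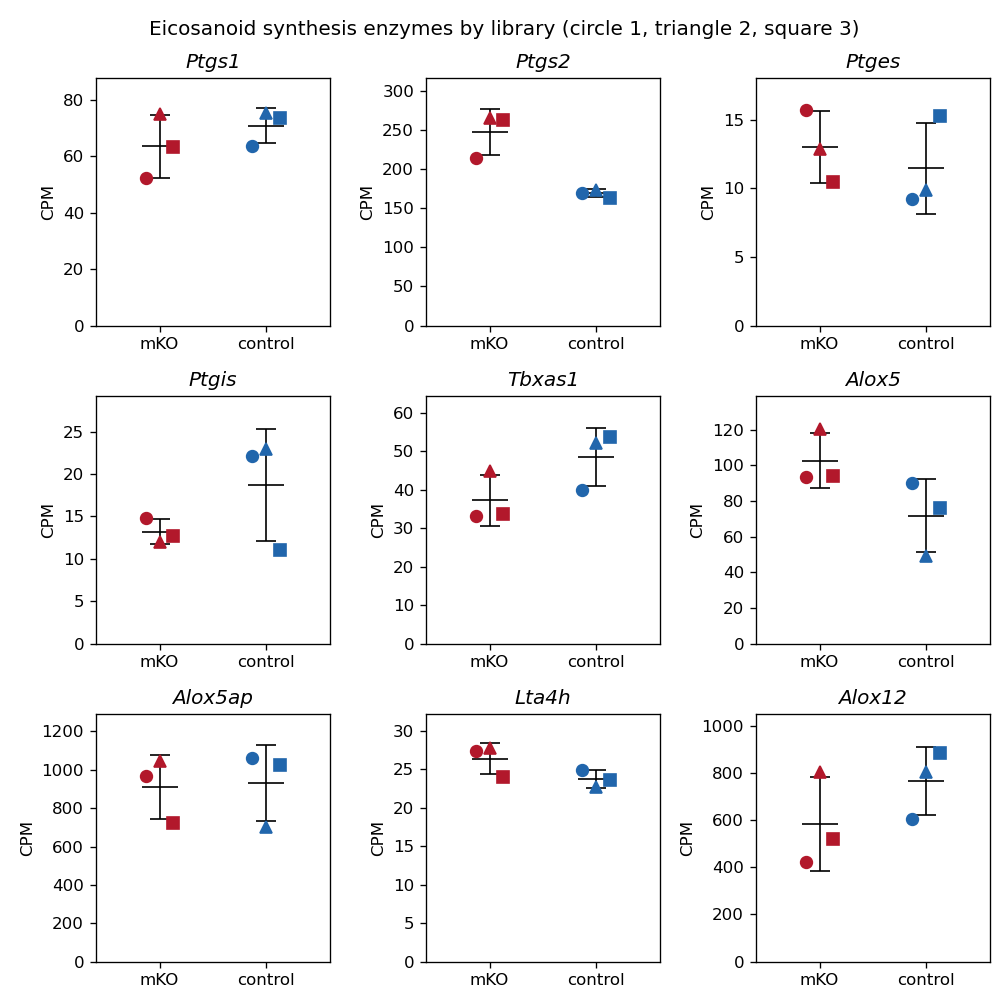
CPM (linear axis from 0) of each of the 9 enzymes in the 3 mKO and the 3 control libraries, with bars at the mean ± SD. For Ptgs2 the mKO libraries sit at 214.1 to 265.5 CPM, above the control libraries at 163.3 to 173.7 CPM, and for Alox5 the lowest mKO library, at 93.2 CPM, is close to the highest control library, at 90.0 CPM.

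Of the 2 cyclooxygenases, the inducible one was separate between groups and the constitutive one was not. Ptgs2 (ENSMUSG00000032487, chromosome 1) encodes the inducible cyclooxygenase COX-2, which can be made by activated macrophages, neutrophils and vessel wall cells. It had 214.1, 265.5 and 262.7 CPM in mKO libraries 1 to 3, against 169.9, 173.7 and 163.3 CPM in control libraries 1 to 3. All mKO values lay above all control values, and the control libraries were close together. The mean was 247.4 ± 28.9 CPM in mKO and 169.0 ± 5.27 CPM in control (SD, n = 3 each). This is a log2 fold change of 0.55 (SE 0.14, 95% interval 0.23 to 0.87, edgeR adjusted p 0.246). DESeq2 gave 0.57 (SE 0.13, adjusted p 0.00239), so the call depends on the tool. With each library left out in turn, the edgeR fold change of Ptgs2 stayed between 0.50 and 0.65, and its smallest adjusted p in edgeR was 0.285.

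Ptgs1 (ENSMUSG00000047250, chromosome 2) encodes COX-1, the constitutive cyclooxygenase that supplies platelets. It had 52.5, 74.9 and 63.4 CPM in mKO, against 63.8, 75.3 and 73.5 CPM in control. The groups overlapped, with library 2 the highest in each. In edgeR, Ptgs1 had a log2 fold change of -0.16 (SE 0.16, 95% interval -0.52 to 0.20, adjusted p 0.675).

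Within a library, the ratio of the counts of both genes does not depend on library scaling. The Ptgs2 to Ptgs1 count ratio was 4.08, 3.54 and 4.14 in mKO, against 2.66, 2.31 and 2.22 in control. The 3 mKO ratios all exceeded the 3 control ratios. The mean log2 ratio was 1.97 ± 0.12 in mKO and 1.26 ± 0.14 in control (SD, n = 3 each), a difference of 0.71. An exact permutation test (two-sided) gave p = 0.1, below which a design of 3 against 3 libraries cannot go. Leaving out each library in turn gave differences of 0.66 to 0.79. Both the higher Ptgs2 and the lower Ptgs1 mean enter this difference. The ratio was chosen with earlier results of these data known, so its p adds no separate evidence to the Ptgs2 values.

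**Figure D2:**
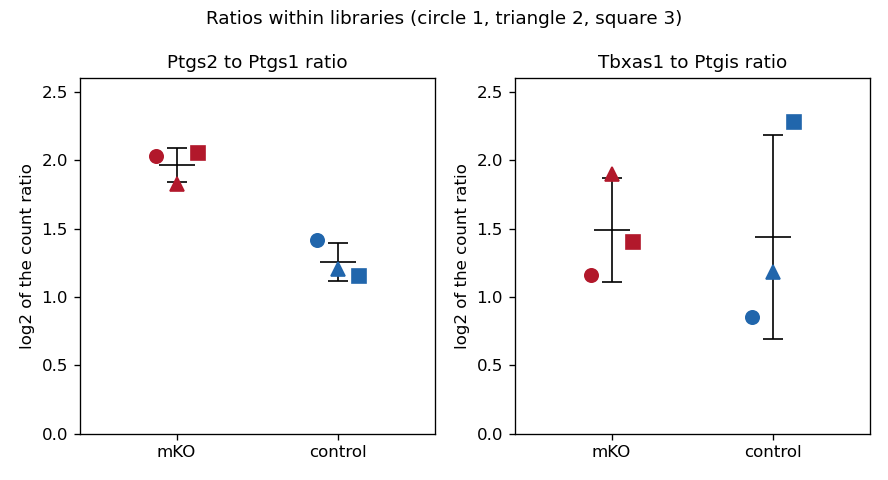
Log2 of the ratio of 2 genes' counts within each library, Ptgs2 to Ptgs1 on the left and Tbxas1 to Ptgis on the right, with bars at the mean ± SD for mKO and control. The Ptgs2 to Ptgs1 ratios are separate, at 1.82 to 2.05 in mKO and 1.15 to 1.41 in control, while the Tbxas1 to Ptgis ratios overlap.

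Promoter windows are shown for Ptgs2 and Alox5, whose libraries did not overlap between groups, and for Ptgs1 as the other cyclooxygenase. They run from 250 bases before to 30 after the RefSeq start, read 5′ to 3′ on the gene's strand, and come from RefSeq on build GRCm38.p6, whereas the counts were made on GRCm39. Of the 10 enzymes, 7 had a promoter in the RefSeq table, and Ptgis, Alox5ap and Alox15 had no entry. Capitals mark matches on either strand to 7 motifs: TGACGT (the core of a cyclic AMP response element), CACGTG (E-box), TTGCGCAA (C/EBP), GGG and TTTCC with any 2 bases between them (NF-kB), GAAA and GAAA with any 2 bases between them (interferon-stimulated response element), GGGCGG (GC box) and, upstream of many transcription starts, TATAAA. Base 1 is the start, and the windows were chosen after the values were seen.
Ptgs2, chr1:150099781-150100060, plus strand: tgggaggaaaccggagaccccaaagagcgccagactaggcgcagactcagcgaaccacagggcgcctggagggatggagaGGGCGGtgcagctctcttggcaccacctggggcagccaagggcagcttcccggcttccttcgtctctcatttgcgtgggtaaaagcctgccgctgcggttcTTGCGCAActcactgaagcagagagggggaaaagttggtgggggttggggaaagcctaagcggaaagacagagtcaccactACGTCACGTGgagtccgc
Ptgs1, chr2:36230176-36230455, plus strand: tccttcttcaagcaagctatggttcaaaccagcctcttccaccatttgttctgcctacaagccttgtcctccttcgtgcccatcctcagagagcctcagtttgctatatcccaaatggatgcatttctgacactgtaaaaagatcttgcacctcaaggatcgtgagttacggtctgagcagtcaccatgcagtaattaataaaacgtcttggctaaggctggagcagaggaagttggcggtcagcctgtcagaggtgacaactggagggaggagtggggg
Alox5, chr6:116461149-116461428, minus strand: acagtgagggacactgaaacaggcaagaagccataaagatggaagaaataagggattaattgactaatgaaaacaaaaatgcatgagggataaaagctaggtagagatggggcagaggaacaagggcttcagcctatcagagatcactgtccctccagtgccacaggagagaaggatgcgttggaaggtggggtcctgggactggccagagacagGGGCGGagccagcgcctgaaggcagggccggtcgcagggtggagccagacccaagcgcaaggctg

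In the Ptgs2 window a GC box lies at bases -170 to -165, the C/EBP letters at -69 to -62, the TGACGT match (on the opposite strand) at bases 13 to 18 and the E-box at 17 to 22, so these last matches overlap. Among 32851 promoter windows of the same length, 0.18% held the C/EBP letters, 7.26% TGACGT, 6.79% the E-box and 34.7% a GC box. Ptgs1 held none of the 7 motifs and Alox5 a GC box alone. None of the 3 windows held the NF-kB or interferon-stimulated letters, which 1.54% and 3.28% of windows did. These are letter matches in short windows, and they say nothing about binding in the vein.

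For the 3 terminal synthases among the 9 enzymes, Tbxas1, Ptgis and Ptges, the groups overlapped. Tbxas1 (ENSMUSG00000029925, chromosome 6) encodes thromboxane synthase of platelets and macrophages. It had 33.1, 44.8 and 33.6 CPM in mKO, against 39.9, 52.1 and 53.6 CPM in control. In mKO, library 2 reached into the control range and the other libraries lay below it. This gave Tbxas1 a log2 fold change of -0.38 (SE 0.17, 95% interval -0.78 to 0.01, edgeR adjusted p 0.428).

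Ptgis (ENSMUSG00000017969, chromosome 2) encodes prostacyclin synthase of endothelium, smooth muscle and fibroblasts. It had 14.8, 11.98 and 12.7 CPM in mKO, against 22.1, 22.9 and 11.1 CPM in control. Control libraries 1 and 2 were higher than every mKO library, and control 3 was the lowest of all 6. For Ptgis, mKO over control was -0.51 on the log2 scale (SE 0.27, 95% interval -1.15 to 0.14, edgeR adjusted p 0.496), and -0.77 without control library 3. The Tbxas1 to Ptgis count ratio was 2.23, 3.74 and 2.64 in mKO, against 1.80, 2.27 and 4.85 in control. The log2 difference was 0.05 (exact two-sided permutation p = 1), and its sign turned without control library 1 (-0.24), control library 2 (-0.08) or mKO library 2 (-0.16).

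Ptges (ENSMUSG00000050737, chromosome 2) encodes the inducible prostaglandin E synthase that works beside COX-2. It had 15.7, 12.8 and 10.4 CPM in mKO, against 9.19, 9.89 and 15.3 CPM in control. The groups covered nearly the same range. In edgeR, Ptges had a log2 fold change of 0.18 (SE 0.23, 95% interval -0.36 to 0.72, adjusted p 0.743). This interval includes the 0.55 estimated for Ptgs2.

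**Figure D3:**
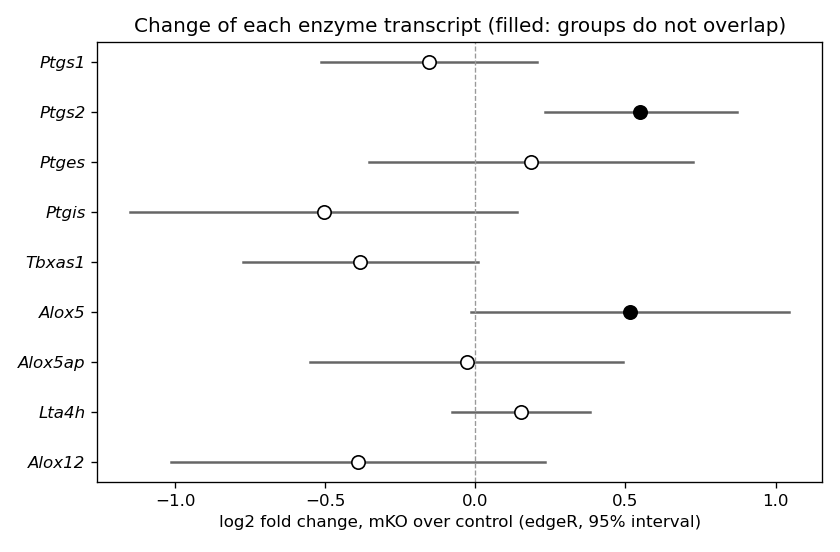
Log2 fold change of each enzyme, mKO over control, with the 95% interval from edgeR's quasi-likelihood test. Filled points mark Ptgs2 and Alox5, whose groups do not overlap. The interval of Ptgs2 (0.23 to 0.87) lies above 0 before adjustment for the number of genes, and those of the other 8 enzymes include 0.

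In the leukotriene branch, Alox5 (ENSMUSG00000025701, chromosome 6) encodes 5-lipoxygenase. It had 93.2, 120.3 and 94.3 CPM in mKO, against 90.0, 49.4 and 76.1 CPM in control. The groups did not overlap, but mKO library 1 and control library 1 were close, and control library 2 was far below the rest. The mean was 102.6 ± 15.3 CPM in mKO and 71.8 ± 20.6 CPM in control (SD, n = 3 each). This gave Alox5 a log2 fold change of 0.51 (SE 0.23, 95% interval -0.02 to 1.04, edgeR adjusted p 0.430, DESeq2 adjusted p 0.288). Without control library 2 the log2 fold change was 0.31.

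Alox5ap (ENSMUSG00000060063, chromosome 5) encodes FLAP, the membrane protein that presents arachidonic acid to 5-lipoxygenase. It had 965.4, 1045 and 723.7 CPM in mKO, against 1063, 700.6 and 1026 CPM in control. The groups overlapped almost fully. For Alox5ap, mKO over control was -0.03 on the log2 scale (SE 0.22, 95% interval -0.55 to 0.49), and its sign turned without control library 1 (0.08), control library 3 (0.05) or mKO library 3 (0.11). Gm19719, annotated on the opposite strand over exons of Alox5ap, had 829 to 1579 counts against at least 123651 for Alox5ap.

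Lta4h (ENSMUSG00000015889, chromosome 10) encodes leukotriene A4 hydrolase, which makes the neutrophil attractant leukotriene B4. It had 27.4, 27.8 and 24.1 CPM in mKO, against 25.0, 22.7 and 23.6 CPM in control. The mKO values spread over a slightly higher range that touched the control range through library 3. In edgeR, Lta4h had a log2 fold change of 0.15 (SE 0.10, 95% interval -0.08 to 0.38), the narrowest interval among the 9 enzymes, and an edgeR adjusted p of 0.551.

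Alox12 (ENSMUSG00000000320, chromosome 11) encodes the platelet 12-lipoxygenase. It had 423.0, 804.1 and 521.9 CPM in mKO, against 604.2, 805.8 and 885.0 CPM in control. Libraries 1 and 3 of mKO lay below every control library, and mKO library 2 stood among the controls. This gave Alox12 a log2 fold change of -0.39 (SE 0.27, 95% interval -1.01 to 0.23, edgeR adjusted p 0.564). The estimate moved to -0.70 when mKO library 2 was left out and to -0.21 when mKO library 1 was.

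Levels can be set side by side between genes only per length, here as mean CPM per kilobase of merged exons from GENCODE M21. Alox5ap had the highest level, 642 in mKO and 655 in control, followed by Alox12 with 143 in mKO and 187 in control. Ptgs2 came next with 54.0 in mKO and 36.9 in control, and its libraries (35.6 to 58.0) did not overlap those of any other enzyme. Alox5 (25.0 in mKO and 17.5 in control) and Ptgs1 (16.4 in mKO and 18.2 in control) overlapped each other. Ptgis, Lta4h, Tbxas1 and Ptges formed the lowest group, between 2.34 and 8.93 over all libraries, and each overlapped its neighbour. Merged exons cover all annotated isoforms, which understates the level of genes with long rare isoforms, and Tbxas1 has the longest, 9094 bases.

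The enzymes were also set beside markers of the cells known to make them. The 11 platelet markers, led by Ppbp, summed to 3544.5, 5546 and 3728.8 CPM in mKO, against 4823.6, 6362.2 and 7077.4 CPM in control. All 11 had negative fold changes, and none was at 0 in any library. For 1 of the 11 the groups did not overlap, against 9.39% of all genes in the lower direction. Tbxas1 and Alox12 ranked the libraries within each group as the platelet sum did, and Ptgs1 did so in mKO. In mKO this order was also that of Ptgs2, Alox5 and the summed mast cell markers. With 3 libraries a group, few orders are possible, so a shared order is no measure of cell content. Alox12 amounted to 11.9%, 14.5% and 14.0% of the platelet sum in mKO and to 12.5%, 12.7% and 12.5% in control. The groups overlapped on this measure too. Ptgs1 amounted to 1.48%, 1.35% and 1.70% of the platelet sum in mKO and to 1.32%, 1.18% and 1.04% in control, without overlap. Ppbp and Pf4, with means of 1371 and 1268 CPM over all libraries, were the largest parts of the sum. The log2 fold changes of the 11 markers ran from -0.77 (Pf4) to -0.28 (Gp1bb). Shares of the platelet sum therefore depend on the markers summed, and ratios to single markers were not computed. The part of platelet content in these levels was not tested.

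**Figure D4:**
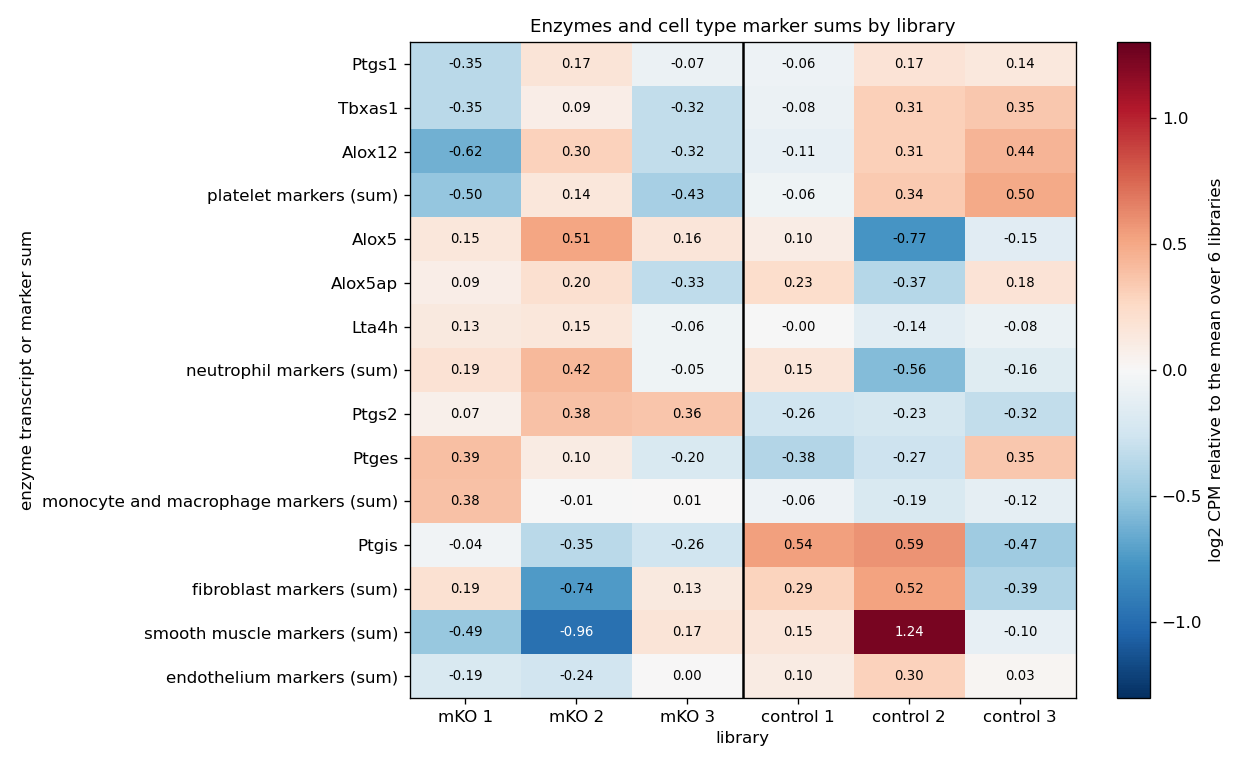
Log2 CPM of each enzyme and of summed cell type markers, relative to the mean over the 6 libraries, with mKO libraries left of the line and control libraries right of it. Alox12 and the platelet sum share their lowest library (mKO 1, -0.62 and -0.50) and highest library (control 3, 0.44 and 0.50), and Alox5 and the neutrophil sum share theirs (control 2, -0.77 and -0.56, and mKO 2, 0.51 and 0.42).

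The 9 neutrophil markers, led by S100a9, summed to 16248.8, 19081.3 and 13715.6 CPM in mKO, against 15809.6, 9641.4 and 12764.2 CPM in control. Of them 7 had positive fold changes, and none was at 0. For 1 of the 9 the groups did not overlap, against 8.76% of all genes in the higher direction. Alox5ap and Lta4h ranked the libraries within each group as this sum did, and Alox5 did so in control. The red cell marker sum shared the order in mKO, and the mast cell marker sum shared it in control. Alox5 amounted to 0.574%, 0.630% and 0.687% of the neutrophil sum in mKO and to 0.569%, 0.512% and 0.596% in control, with overlap. Alox5ap amounted to 5.94%, 5.48% and 5.28% in mKO and to 6.73%, 7.27% and 8.04% in control, without overlap. S100a9 and S100a8, with means of 5597 and 3862 CPM over all libraries, made up most of the neutrophil sum. Their log2 fold changes were 0.43 (SE 0.22) and 0.37 (SE 0.22), and those of Retnlg and Mmp8 were negative (-0.11, SE 0.29, and -0.23, SE 0.55). Shares of the neutrophil sum therefore mostly follow S100a9 and S100a8, and ratios to single markers were not computed. The 10 monocyte and macrophage markers, led by Csf1r, summed to 707.1 to 925.1 CPM in mKO and 622.1 to 681.3 CPM in control. These sums did not overlap, 9 of the markers had positive fold changes, and none was at 0. Singly, 8 of the 10 overlapped between groups, and Csf1r and Cd68 lay higher in mKO, against 8.76% of all genes in that direction. The list median was a log2 fold change of 0.112. Ptgs2 overlapped between groups when set relative to the neutrophil sum (1.32% to 1.92% in mKO and 1.07% to 1.80% in control) and to the monocyte and macrophage sum (23.1% to 37.6% in mKO and 24.9% to 27.9% in control). Vessel wall cells can also make COX-2, and Ptgs2 was not set relative to their markers. Of the wall sums, the endothelial one lay lower in mKO without overlap, and those of smooth muscle and fibroblasts overlapped. The part of myeloid or wall cell content in the Ptgs2 level was not tested, nor that of myeloid cell content in the Alox5 level.

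For Ptgis, the vessel wall markers are the ones to set beside it. The 8 endothelial markers, led by Pecam1, summed to 415.7 to 493.3 CPM in mKO and 502.4 to 606.6 CPM in control, without overlap. The 6 smooth muscle markers, led by Acta2, summed to 645.0 to 1415 CPM in mKO and 1172 to 2973 CPM in control. The 5 fibroblast markers, led by Dcn, summed to 321.9 to 615.6 CPM in mKO and 410.5 to 771.1 CPM in control, and they ranked the libraries within each group as Ptgis did. The monocyte and macrophage sum shared this order in mKO, and the endothelial and smooth muscle sums shared it in control. None of the 19 wall markers was at 0 in any library. Relative to each of the 3 wall sums Ptgis overlapped between groups, and the part of wall content in its level was not tested.

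Around the 9 enzymes, 67 further genes of the pathway were listed in 6 groups by role, and 51 could be tested. Dpep2 is listed under 2 gene IDs and was left out. By edgeR quasi-likelihood 0 of the 51 passed an adjusted p of 0.05, and 11 had an unadjusted p under 0.05, 7 higher and 4 lower, against 11.9% of all genes, 5.6% higher and 6.26% lower. Limma voom called 0. DESeq2 called 3 higher and 1 lower, against 2.79% of all genes in either direction. Separate groups were found for 7 genes higher in mKO and 4 lower, against 8.76% and 9.39% of all genes tested. Their median log2 fold change was 0.003, beside -0.03 over all genes.

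Among the other prostanoid synthases, 2 of 7 genes had groups without overlap, both higher in mKO, against 8.76% of all genes. Hpgds, the haematopoietic prostaglandin D synthase of mast cells, macrophages and some T cells, had the lowest p of the pathway genes. It had 2.96, 2.58 and 3.06 CPM in mKO, against 1.37, 1.01 and 0.910 CPM in control. The log2 fold change was 1.38 (SE 0.22, edgeR adjusted p 0.150, DESeq2 adjusted p 4.34e-06). Leaving out each library gave 1.27 to 1.57. The 7 mast cell markers detected, led by Hdc, which neutrophils and basophils also express, summed to 397.5 to 717.8 CPM in mKO and 387.0 to 575.7 CPM in control, and 6 had positive fold changes (list median 1.43). Hdc alone had 371.3 to 696 CPM in mKO and 368.9 to 550.8 CPM in control, so the sum mostly follows Hdc. It is therefore no measure of mast cells. The mast cell protease gene Cma1, chosen after its values were seen, had a log2 fold change of 1.795 (SE 0.57, edgeR adjusted p 0.333, DESeq2 adjusted p 0.0226). Of the 7 markers, 2 lay higher and 1, Kit, lower without overlap (Kit -0.38, SE 0.14). Among all genes tested these shares were 8.76% and 9.39%. The part of mast cell content in the Hpgds level was not tested. Ptges3, the cytosolic prostaglandin E synthase and HSP90 cochaperone, had 75.2 to 80.5 CPM in mKO and 61.5 to 68.0 CPM in control (log2 fold change 0.28, SE 0.11). Akr1b8, an aldo-keto reductase, had 0.47 (SE 0.17) with overlapping groups.

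Of 12 genes that release or recycle arachidonic acid, 3 lay higher in mKO without overlap and 1 lower. Among all genes tested these shares were 8.76% and 9.39%. Daglb, a diacylglycerol lipase, had 9.37 to 10.3 CPM in mKO and 7.41 to 7.93 CPM in control, with a log2 fold change of 0.39 (SE 0.11, edgeR adjusted p 0.298, DESeq2 adjusted p 0.0403). Mgll, the monoacylglycerol lipase, had 26.2 to 37.1 CPM in mKO and 44.6 to 50.1 CPM in control, with a log2 fold change of -0.50 (SE 0.15). Pla2g4a, the cytosolic phospholipase A2 that frees arachidonic acid in activated cells, had 23.7, 22.6 and 19.4 CPM in mKO, against 17.5, 18.1 and 15.0 CPM in control. Its log2 fold change was 0.38 (SE 0.12, edgeR adjusted p 0.326, DESeq2 adjusted p 0.115). Another phospholipase of the list, Pla2g12a, went the other way, with 26.1 to 38.7 CPM in mKO and 36.0 to 50.3 CPM in control. Its groups overlapped, and its log2 fold change was -0.52 (SE 0.19, edgeR adjusted p 0.364, DESeq2 adjusted p 0.224). Pla2g4a, Pla2g12a and the third higher gene, Acsl4 (0.20, SE 0.10), were chosen after their values were seen. The median log2 fold change of the list was -0.004. Mboat7, which puts arachidonate back into phosphatidylinositol and had the highest CPM of this list, had 0.23 (SE 0.21).

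**Figure D5:**
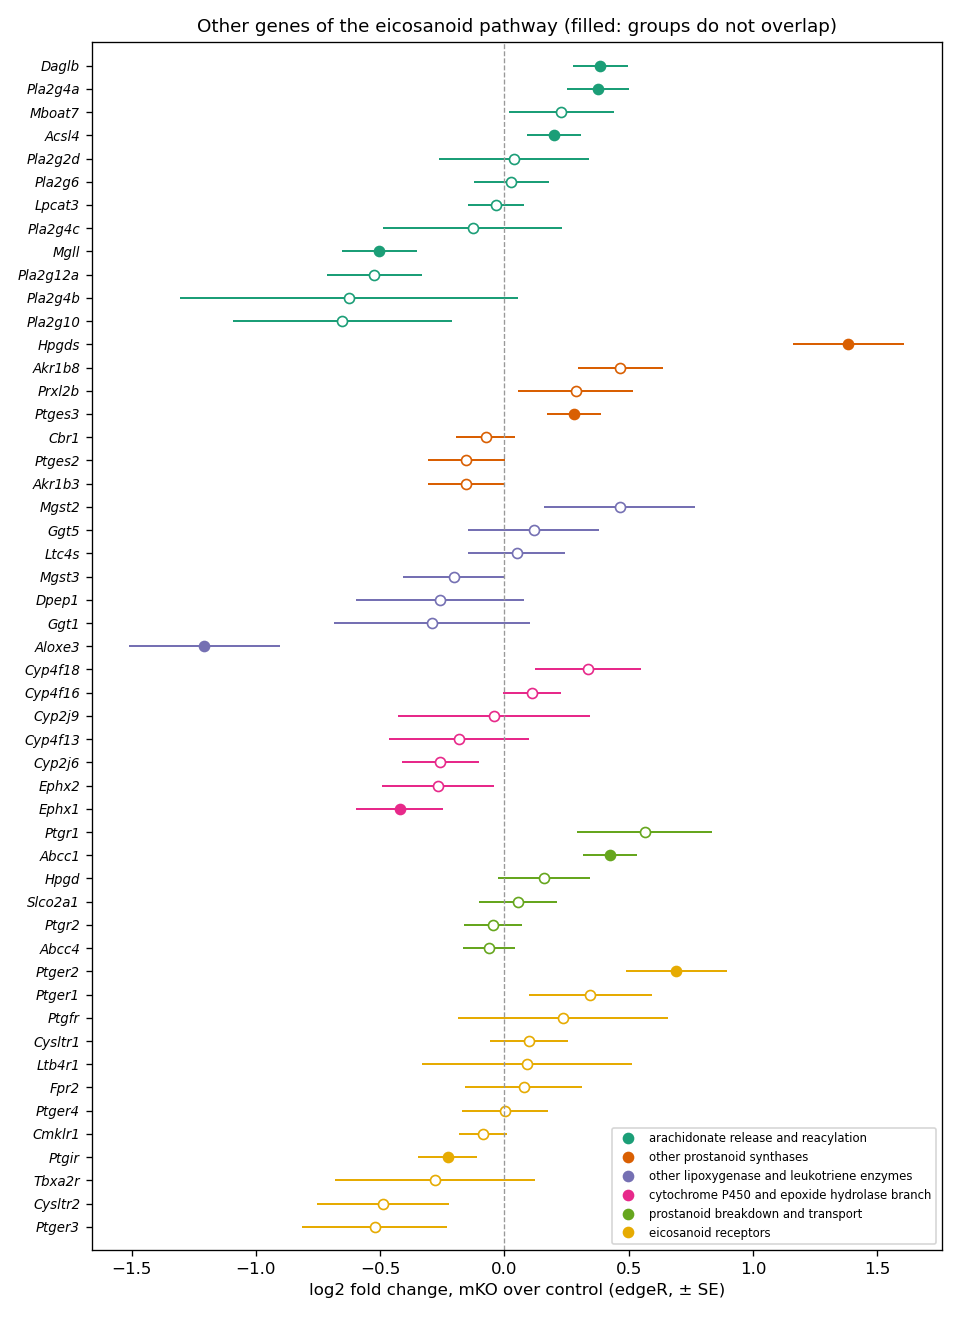
Log2 fold change (mKO over control, edgeR, bars ± SE) of 51 other genes of the eicosanoid pathway, grouped by role, with filled points where the groups do not overlap. The highest value is that of Hpgds (1.38) and the lowest that of Aloxe3 (-1.21), and most points lie near 0.

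In the transport and breakdown list, 1 of 6 genes had groups without overlap, against 18.2% of all genes in either direction. Abcc1, the exporter of leukotriene C4, had 65.4, 62.9 and 62.8 CPM in mKO, against 43.4, 48.9 and 50.1 CPM in control. The log2 fold change was 0.42 (SE 0.11, edgeR adjusted p 0.246, DESeq2 adjusted p 0.00312). Ptgr1, a reductase that inactivates prostaglandins and leukotriene B4, had 0.56 (SE 0.27), with mKO library 1 at 8.17 CPM and the others at 3.57 to 4.86 CPM.

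Among 12 eicosanoid receptors, Ptger2 and Ptgir had groups without overlap, against 18.2% of all genes in either direction. Ptger2, the EP2 receptor of prostaglandin E, had 11.3, 11.4 and 7.68 CPM in mKO, against 7.36, 5.19 and 6.20 CPM in control, with mKO library 3 just above control library 1. The log2 fold change was 0.69 (SE 0.20, edgeR adjusted p 0.304, DESeq2 adjusted p 0.0630). Ptgir, the prostacyclin receptor, had 8.83 to 10.3 CPM in mKO and 10.3 to 11.5 CPM in control, with the groups nearly touching and a log2 fold change of -0.23 (SE 0.11). Fpr2, the formyl peptide and lipoxin receptor of neutrophils and the most abundant of the list in CPM, had 0.08 (SE 0.23), which turned to -0.06 without control library 2 and to -0.075 without mKO library 2.

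The remaining lists each had 1 gene of 7 whose groups did not overlap, against 18.2% of all genes in either direction. Of 7 lipoxygenase and leukotriene enzymes, 1 had groups without overlap: Aloxe3, an epidermis-type lipoxygenase, had 0.717, 1.09 and 0.644 CPM in mKO, against 2.22, 1.38 and 2.05 CPM in control. Its log2 fold change was -1.21 (SE 0.30, edgeR adjusted p 0.246, DESeq2 adjusted p 0.0221). Mgst2, a leukotriene C4 synthase, had 0.46 (SE 0.30), and Ggt5, which converts leukotriene C4 to D4, 0.12 (SE 0.26), or -0.12 without control library 2. Of 7 genes in the cytochrome P450 branch, Ephx1, an epoxide hydrolase, had 5.20 to 7.25 CPM in mKO and 7.34 to 9.77 CPM in control, with a log2 fold change of -0.42 (SE 0.17). Cyp2j6, an epoxygenase, had -0.26 (SE 0.15), and Cyp4f18, which inactivates leukotriene B4 in neutrophils, 0.33 (SE 0.21) at 486.0 to 712.2 CPM in mKO and 398.8 to 579.4 CPM in control.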

How the data were processed

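As deposited, each library has 1 table of raw counts for 16533 genes, made by the authors. The release of the annotation and the strand setting were not given in the sources used here. Tools and build, per the submitters' processing notes, were featureCounts 2.0.1, HISAT2 2.1.0, FastQC 0.11.8 and Trim Galore 0.4.0, as well as build GRCm39. If strand was not used, reads over exons that a gene shares with an antisense gene cannot be told apart. Exons of Ptgs1, Ptgis and Tbxas1 overlap opposite-strand genes of GENCODE M21 that are not among the counted genes. For Ptgs2 no overlapping gene was found there, and Ptgs2os, annotated beside it on the opposite strand, had 33 to 129 counts.

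The main test was the quasi-likelihood F-test of edgeR 4.0.16 (R 4.3.3, TMM, robust dispersion, default expression filter, 16523 genes), without a replicate block. The fit was tested on simulated data. Alternatives were DESeq2 1.42.0, limma 3.58.1 voom, other normalizations and filters, a replicate block and leaving out libraries; the joint omission of control 3 and mKO 3 was chosen after seeing the data. No pair of libraries agreed within sampling noise. Enzymes, gene lists and ratios were chosen with earlier results of these data known. Pathway genes were named by a rule: those past the threshold or else the 2 with the smallest p, and the 1 with the highest CPM. Each marker list is named by the gene with the highest CPM. Other named genes were chosen after their values were seen. Of the marker lists, the peritoneal macrophage, eosinophil and erythroid sums overlapped between groups, and Krt19, the single mesothelial marker tested, did not. CPM, ratios and CPM per kilobase were computed from the deposited counts, with lengths from GENCODE M21 on the earlier build, which matched 16490 gene IDs.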

Additional observations from a re-analysis of the deposited data

How the results depend on the processing

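DESeq2 called 461 genes and 1 of the enzymes, where edgeR's quasi-likelihood test called 0 and 0. Leaving out each library in turn gave 0 to 7 genes past the threshold (7 without control 1, 2 without control 3 and 4 without mKO 3), 0 enzymes past it each time, 2 to 5 enzymes whose groups did not overlap (5 without control 1 or mKO 2 and 4 without control 3) and 15 to 19 such pathway genes, where all libraries gave 11. With fewer libraries such counts are larger by construction. The share of all genes whose groups did not overlap was 36.3% without control 1, 27.8% without mKO 2 and 27.2% without control 3. Over single omissions this share ran from 22.4% (without control 2) to 36.3%. Without control 3 and mKO 3, 6 genes passed, and 5 enzymes and 24 pathway genes had groups that did not overlap (38.7% of all genes). The Tbxas1 to Ptgis difference ran from -0.24 to 0.47 over single omissions, the Alox5ap fold change from -0.20 to 0.11 (0.19 without both libraries), that of Ggt5 from -0.12 to 0.37 and that of Fpr2 from -0.075 to 0.27. The cause was not tested. The other enzymes, Sting1, Lyz2 and the other pathway genes named by the rule kept their direction in every alternative that gave a value. Of these, 5 (Ptgs2, Daglb, Hpgds, Aloxe3 and Abcc1) passed in DESeq2. For Pla2g4a, Pla2g12a and Acsl4 no other normalization, filter, block or omission was run. Replicate numbers did not pair the libraries: same-numbered deviations correlated at -0.14, -0.15 and -0.27, the lowest value for each mKO library. With the replicate number as a block 0 genes and 0 enzymes passed, and the Ptgs2 fold change was 0.54. With 3 libraries a group, the exact permutation test cannot go below 0.1.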
